A study of Homo sapiens with 2 samples.

Results

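PRDM1 (BLIMP-1) peaks that lie close together in the human multiple myeloma cell line U266 are described here. A peak was a member if its edge lay at most 2000 bp from the edge of another peak of the complete list on the same chromosome. The members were thus chosen by the called positions and widths, and 739 of the 9669 peaks met the rule, while 8930 had no such neighbour. The list came from chromatin immunoprecipitation and sequencing (ChIP-seq) of 1 PRDM1 library, made with the rabbit monoclonal antibody C14A4, called against 1 input library, whose DNA saw no antibody. The cell line label of both samples is U266. NCI-H929, another myeloma line, also appears in their growth protocol, and no value here tells the lines apart. The labels give no treatment, genotype or further group. The series design concerns where PRDM1 binds in 2 myeloma lines, of which U266 alone was analysed here. Neither library was replicated and no test was made: intervals below cover counting error only, and peaks are not replicates.

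PRDM1 is a zinc finger repressor that turns B cells into antibody-secreting plasma cells and keeps that state. It binds GAAAG-containing sites, some of which are also read by interferon regulatory factors, and it recruits corepressors and histone-modifying enzymes. Myeloma is a tumour of plasma cells, so its cells commonly carry the protein. In ChIP-seq, a site appears as a pile of short sequenced fragments (tags), and a peak caller joins neighbouring piles into 1 region or reports them apart, depending on how many tags lie between them. Coordinates are 1-based, as deposited, and read as GRCh37, since no peak passed a chromosome end of that build while 53 passed one of GRCh38. Genes and the DNA sequence under the peaks were not analysed here.

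After duplicates were removed, 7854466 PRDM1 tags and 8556458 input tags remained, or 2.91 PRDM1 tags per kb of effective genome. The smallest member held 9 tags.

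Most close peaks came as pairs. The 739 members formed 358 groups, of which 337 (94.1%) were pairs, 19 held 3 peaks and 2 held 4. Pairs took 674 members and the larger groups 65. A group spanned a median of 2374 bp from its first to its last edge, with quartiles of 1909 and 3179 bp and a range of 1018 to 6890 bp. Its peaks covered a median of 80.1% of that span, so the uncovered stretch between them was usually the smaller part. Members made up 7.64% of all peaks (95% Wilson interval 7.13 to 8.19) and held 9.47% of the 233980 tags found in peaks.

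Neighbouring edges crowded at the shortest distances. The 381 neighbouring pairs of edges lay a median of 457 bp apart, with quartiles of 177 and 1010 bp and a range of 3 to 1996 bp. Of these, 205 (53.8%) were at most 500 bp apart and 62 (16.3%) at most 100 bp. Another 78 fell between 500 and 1000 bp, 57 between 1000 and 1500 bp and 41 between 1500 and 2000 bp. Beyond the limit the numbers fell more slowly. Per 500 bp of distance there were 33.5 next peaks (95% Poisson interval 26 to 42.5) from 2000 to 3000 bp and 34.5 (26.8 to 43.7) from 4000 to 5000 bp. From 5000 to 10000 bp there were 26.9 (23.8 to 30.3), and from 20000 to 50000 bp 20.3 (19.2 to 21.5). The first 500 bp, with 205 (178 to 235), thus held several times the density of any class past 2000 bp. The excess of neighbours over the farther classes was mostly within 1500 bp, and the class from 1500 to 2000 bp, at 41 (29.4 to 55.6), had an interval that overlapped the next one.

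**Figure D1:**
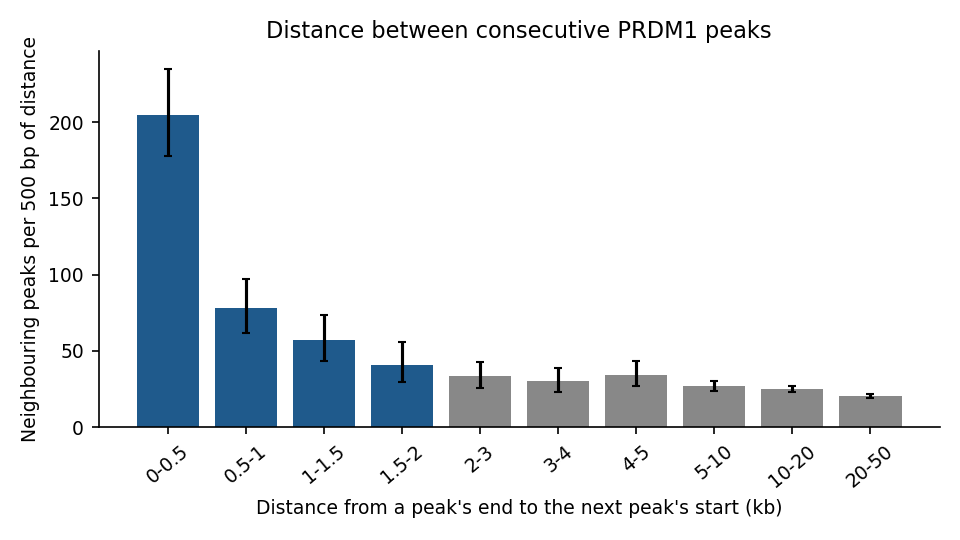
Distance from the end of each peak to the start of the next on the chromosome (kb, x axis) against the number of next peaks per 500 bp of distance (y axis). Blue bars lie inside the 2000 bp limit and grey bars outside it, and error bars are 95% Poisson intervals. The first bar stands at 205 and the last at 20.3.

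Peaks of the 3 pairs just inside the limit held 12 to 42 tags, and those of the 3 just outside 11 to 34. So few pairs allow no comparison. The widest-set members lay 1996 bp apart on chromosome 9, from 111882190 to 111882898 with 26 tags and from 111884894 to 111886417 with 42 tags. The next lay 1979 bp apart on chromosome 1 (33549403 to 33550049, 15 tags, and 33552028 to 33552730, 17 tags) and 1943 bp apart on chromosome 3 (152013585 to 152014044, 12 tags, and 152015987 to 152016861, 22 tags). Just outside, 2012 bp parted peaks of 26 and 24 tags on chromosome 6 (32808564 to 32809323 and 32811335 to 32812158). The same 2012 bp parted peaks of 16 and 34 tags on chromosome 11 (69055732 to 69056583 and 69058595 to 69059773). On chromosome 7, peaks of 11 and 16 tags lay 2014 bp apart (130792480 to 130793051 and 130795065 to 130795684).

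Summits, the points of highest tag pile-up, lay a median of 1405 bp apart (quartiles 1019 and 2013 bp). No 2 summits were closer than 510 bp, and 90 of the 381 spacings were at most 1000 bp. The class from 1000 to 1250 bp was the fullest, with 65 spacings, followed by 60 from 1250 to 1500 bp and 54 from 750 to 1000 bp. Together the spacings from 750 to 1500 bp made up 47.0% of all. Only 9 exceeded 3000 bp. Peak width bounds these spacings from below, because summits of 1 called region are not reported apart.

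**Figure D2:**
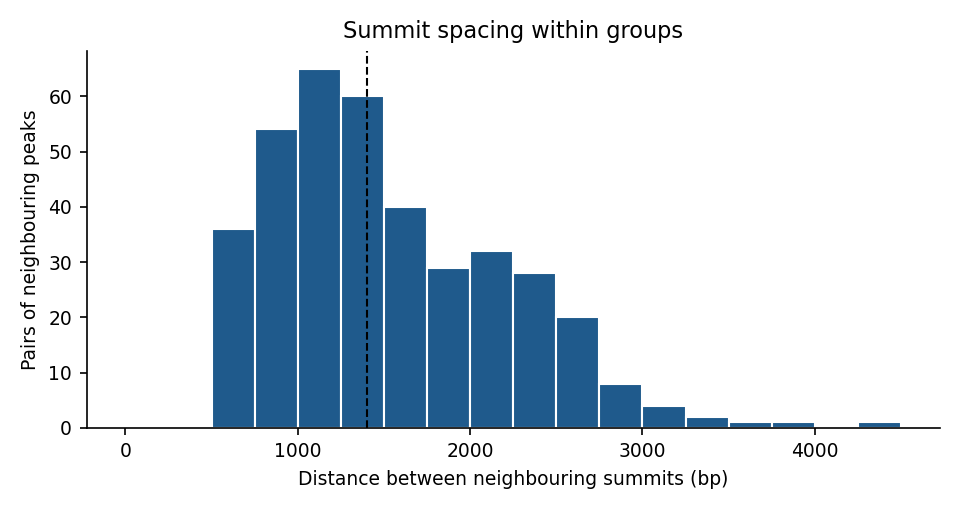
Distance between the summits of neighbouring members (bp, x axis, bins of 250 bp) against the number of neighbouring pairs (y axis), with the median as a dashed line. No spacing lies under 510 bp, and most lie between 750 and 2500 bp.

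The closest summits belonged to weak and narrow peaks. On chromosome 9 from 36730798 to 36732167, peaks of 14 and 16 tags had summits 510 bp apart. On chromosome 2 from 15400500 to 15401811, peaks of 10 and 20 tags had summits 515 bp apart, and on chromosome 17 from 67052874 to 67053891 peaks of 12 and 10 tags had summits 517 bp apart. All of these pairs spanned under 1500 bp. The remaining 2 were on chromosome 3 from 58369769 to 58371185 (10 and 14 tags, 566 bp) and on chromosome 14 from 90740404 to 90741470 (10 and 13 tags, 574 bp). In none of these 5 pairs did the exact 95% interval of the stronger peak's share leave 50%, so their peaks were not distinguishable in tags at this depth. The widest spacings were found in pairs with at least 1 strong and wide peak: 4252 bp on chromosome 15 from 75490051 to 75495779, 3962 bp on chromosome 4 from 8534574 to 8541463 and 3511 bp on chromosome 15 from 91200659 to 91205451.

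Members were somewhat stronger than peaks without a neighbour. Their median tag count was 18 (quartiles 12 and 32), against 15 (11 and 25) for the others. With only peaks at an FDR of at most 5% kept, neighbours were found anew among them, and 198 peaks had one. Their median was 29 tags (95% interval 26 to 33) against 27 (27 to 28) for the rest, intervals that overlap. Members whose neighbours all failed the limit count among that rest. In the complete list the members' median width was 791 bp against 720 bp for the others, and their density 22.5 tags per kb of width against 21.2. The caller's fold at the summit had medians of 11.12 and 11.04, a difference of the size of a single step of that value. Tags over expected, the scaled tags divided by those the input background predicts, had medians of 5.99 (95% interval of the median 5.83 to 6.13) and 5.87 (5.83 to 5.91), which overlap. The upper quartiles were 7.62 and 7.02. The members therefore differed in tags and width more than in enrichment over input. Wider peaks also bring edges closer, and the part of this in the differences of width and tags was not tested.

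Close peaks passed the false discovery rate (FDR) limit of the authors' caller more often. An FDR of at most 5% was reached by 392 of the 739 members, or 53% (Wilson interval 49.4 to 56.6), where 43.5% of all 9669 peaks reached it. Among the peaks without a neighbour the share was 42.7% (41.7 to 43.8). An FDR of 0 was given to 123 members (16.6%), against 10.7% of all peaks. At a limit of 1% the shares were 38.4% of members (284) and 30.2% of all peaks, and at 20% they were 72.0% (532) and 62.9%. The authors' filtered list, which asks for 50 tags or more besides an FDR under that limit, took in 111 members, or 15% (12.6 to 17.8), where it took in 9.17% of all peaks and 8.69% of those without a neighbour. Since the calling that gave these values also gave the positions that chose the members, these shares describe the list and support nothing further. The weakest class, of 9 to 11 tags, made up 17.2% of the members and 26.3% of the others.

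The share of peaks with a close neighbour rose with tags in each of 6 classes. It was 5.14% (Wilson interval 4.33 to 6.08) of the 2473 peaks of 9 to 11 tags and 6.95% of those of 12 to 14 tags. It was 8.29% at 15 to 24 tags and 8.85% at 25 to 49 tags. Of the 667 peaks of 50 to 99 tags, 78 (11.7%, 9.47 to 14.4) had such a neighbour, as did 33 of the 230 peaks of 100 tags or more (14.3%, 10.4 to 19.5). The lowest and highest classes did not overlap in their intervals, while neighbouring classes did. Width rose alongside, from a median of 553 bp in the lowest class to 1920 bp in the highest.

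Windows between summits were counted as well. The nearest window takes in partners within the groups, and wide peaks place their partners' summits farther off, so the part of width in these shares was not tested. Another summit lay 2000 to 5000 bp away from 3.19% (2.57 to 3.96) of the peaks of 9 to 11 tags, 5.21% (4.24 to 6.39) of those of 25 to 49 tags and 10.9% (7.47 to 15.6) of those of 100 tags or more. At 20000 to 23000 bp the shares of these classes were 2.30% (1.78 to 2.97), 5.45% (4.46 to 6.66) and 6.52% (3.99 to 10.5). At 50000 to 53000 bp they were 2.63%, 3.70% and 1.74% (0.678 to 4.39). In each of these 3 classes the intervals at 2000 to 5000 bp and 20000 to 23000 bp overlapped. They also overlapped at 15 to 24 and at 50 to 99 tags. At 12 to 14 tags they did not, at 5.1% (4.27 to 6.09) and 3.26% (2.6 to 4.07). Over all peaks the intervals were apart too, at 4.58 to 5.45% for the nearer window and 3.52 to 4.29% for the farther. For peaks of 100 tags or more the share at 2000 to 5000 bp lay above that at 50000 to 53000 bp, which rests on 4 peaks. Between members and other peaks the intervals at that larger distance overlapped: 3.25% (2.19 to 4.79) of members and 3.47% (3.11 to 3.87) of the others had a summit 50000 to 53000 bp away. From 5000 to 10000 bp the shares were 10.4% (8.42 to 12.8) and 5.80% (5.33 to 6.30). From 10000 to 20000 bp they were 13.9% (11.6 to 16.6) and 10.8% (10.2 to 11.5). The members' shares were the higher in both windows. From 10000 to 20000 bp, however, the intervals all but touched, at 11.6 and 11.5, and no difference is read there. Members also held more tags, and the part of tags in these shares was not tested. At 20000 to 23000 bp the intervals overlapped, at 5.14% (3.77 to 6.98) and 3.78% (3.41 to 4.20). Members of 1 group can share such a summit, so the intervals of the members are too narrow.

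**Figure D3:**
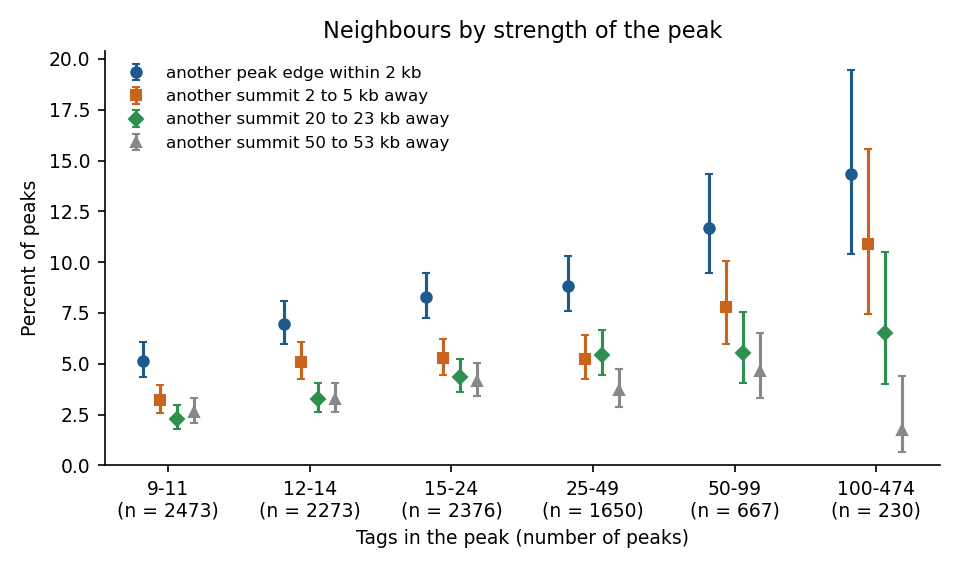
Tags in a peak (x axis, 6 classes with the number of peaks) against the percent of peaks (y axis) with another peak edge within 2000 bp (blue circles), another summit 2000 to 5000 bp away (orange squares), 20000 to 23000 bp away (green diamonds) or 50000 to 53000 bp away (grey triangles), with 95% Wilson intervals. The blue shares go from 5.14% to 14.3%, and in the strongest class the green share is 6.52% and the grey share 1.74%.

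The 10 groups with the most tags were all pairs in which 1 peak held at least 74.3% of the tags. The first, on chromosome 9 from 116340915 to 116344930, held 37 tags in its first peak and 295 in its second, with 993 bp between edges. The strong peak had 17.5 times its expected tags and the weak one 3.59 times. On chromosome 15 from 75490051 to 75495779, 260 tags lay in the first peak and 27 in the second (14.9 and 4.39 times expected), 1795 bp apart. On chromosome 2 from 23601844 to 23605668, 241 tags in the first peak were followed after 13 bp by 22 tags in the second. In both, the strong member held over 90% of the tags of its pair. On chromosome 1 from 172713775 to 172717208 the peaks held 231 and 21 tags, and from 235097339 to 235101370 they held 190 and 15. The latter weak peak had an FDR of 16% and was the sole peak above 5% among these 10 groups. Chromosome 19 from 13103803 to 13108426 held 192 and 43 tags, and chromosome 11 from 71706899 to 71713385 held 47 and 188. Chromosome 9 from 91566548 to 91571120 completed the set of weak and strong peaks with 188 and 14. The other 2 groups of the 10, on chromosomes 4 and 7, had both peaks in the filtered list.

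Pairs with both peaks in the filtered list were rare, at 5 of 337. On chromosome 4 from 8534574 to 8541463, the first peak held 53 tags and the second 238, at folds of 38.6 and 106, across the longest span of any group, 6890 bp. On chromosome 7 from 140354122 to 140358190, 54 and 156 tags lay 12 bp apart, at 4.95 and 10 times expected. On chromosome 15 from 91200659 to 91205451, 70 and 117 tags lay 1187 bp apart. In these 3 pairs the exact interval of the second peak's share of tags lay above an even split. The second peak was also the wider in each, at 4436 against 1683 bp on chromosome 4. The part of width and input background in these shares was not tested. The other 2 were balanced. On chromosome 16 from 21960531 to 21965156, 66 and 65 tags lay 1209 bp apart, and the stronger held 50.4% (exact interval 41.5 to 59.2). On chromosome 9 from 114793719 to 114797021, 58 and 69 tags lay 158 bp apart, and the stronger held 54.3% (45.3 to 63.2). There the order by tags and by enrichment differed, since the peak of 58 tags had 7.83 times its expected tags and that of 69 had 3.27 times.

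**Figure D4:**
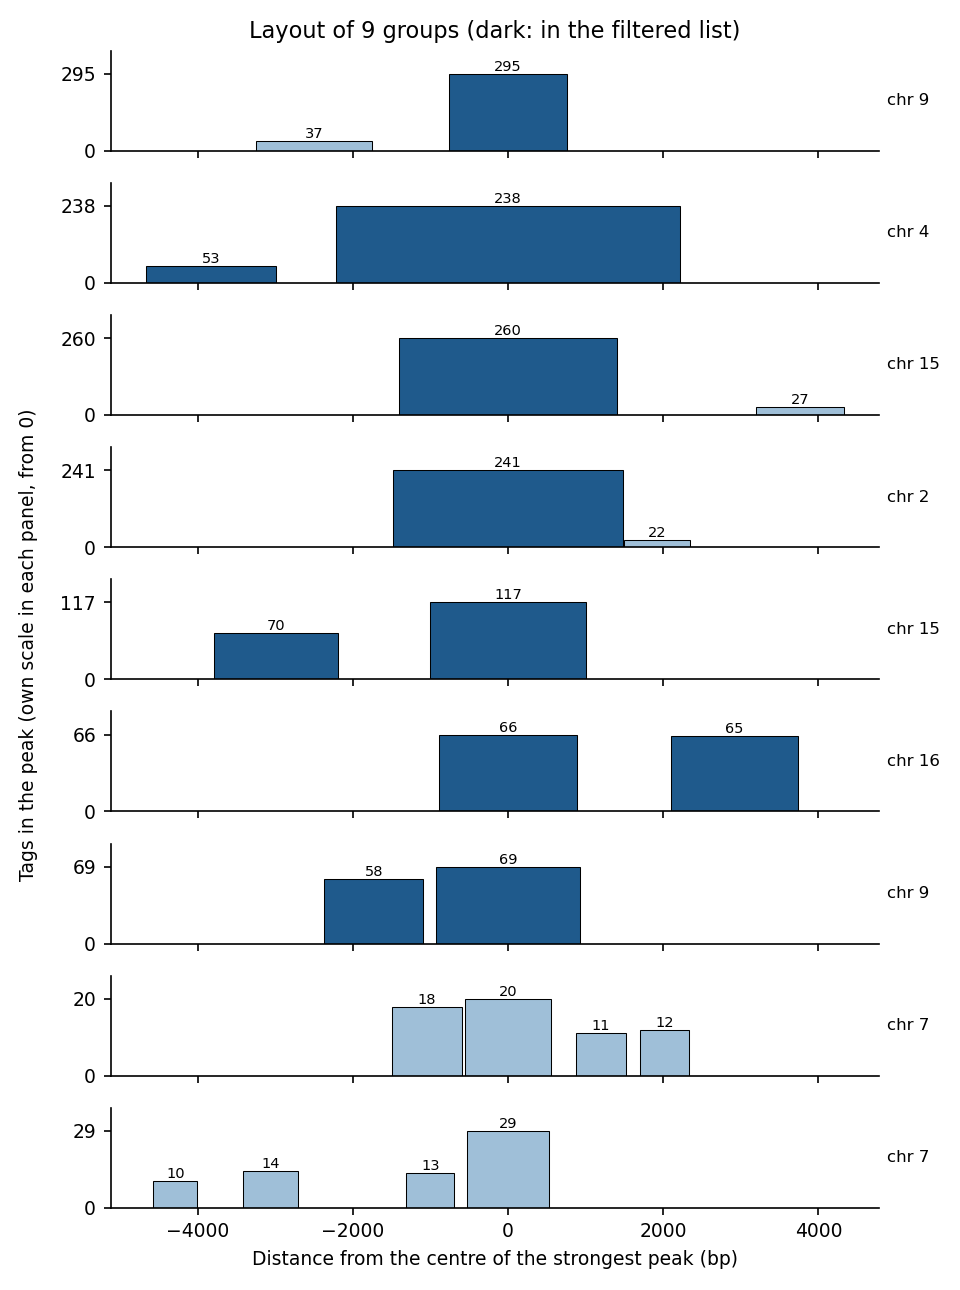
Layout of 9 groups: the 4 with the most tags, the other 3 with both peaks in the filtered list, and both groups of 4 peaks. Bars give the extent of each peak (x axis, bp from the centre of the strongest peak) and its tags (y axis, own scale from 0 in each panel), dark where the peak is in the filtered list. A dominant peak stands beside a small one in the top panels, and the chromosome 16 pair of 66 and 65 tags is level.

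Over all 337 pairs, the stronger peak held a median of 66.7% of the pair's tags (quartiles 56.5 and 77.0), a ratio of 2 to 1. The stronger peak was chosen by its tags, so its share cannot fall under 50%, and counting error raises it. Chosen and measured by tags over expected, the median share was 58.9%. By tags, the stronger peak held at least 75% in 98 pairs (29.1%) and at most 60% in 117 (34.7%). The exact 95% interval of its share lay above 50% in 165 pairs (49%). This depended on depth: none of the 81 pairs with at most 30 tags in all reached it. All 30 pairs whose stronger peak held 100 tags or more did. No member held fewer than 9 tags, so pairs of at most 30 tags could hardly be uneven enough. Their result was nearly fixed in advance. A weak pair therefore could not be shown to be uneven. The ratio was widest on chromosome 9 from 91566548 to 91571120, at 188 to 14 tags (93.1%, exact interval 88.6 to 96.2). Chromosome 1 from 235097339 to 235101370, at 190 to 15 (92.7%), and from 87203651 to 87206938, at 10 to 125 (92.6%), came next among pairs with at least 100 tags. The third most balanced pair of that size was on chromosome 12 from 127256264 to 127259761, with 67 and 48 tags (58.3%, 48.7 to 67.4). By enrichment this pair ran the other way, at 7.11 and 15.5 times expected.

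Over all 337 pairs, the tags of the first and second peak were hardly correlated. Their Spearman rho was -0.004 and their Pearson r -0.03 on the log10 scale, given as a description over peaks of 1 library. The strongest class differed, however. Where the stronger peak held 100 tags or more, the weaker had a median of 19 tags, against 14 at 50 to 99 tags. Of the paired peaks that had an FDR of at most 5%, 48.7% (43.6 to 53.9) had a partner that passed this limit too. Of those that failed it, 57.7% (52.2 to 63.0) had a passing partner. Each pair was counted in both orders here, and the 183 pairs with 1 passing peak entered both shares. The intervals treat these entries as separate, so they are too narrow, and the shares are not independent. The input background, by contrast, was shared: its rho between partners was 0.479, its median ratio 1.21, and in 251 pairs it differed by at most 1.5 times. Partners draw that background from overlapping windows of the same input. Along the chromosome, the first peak was the stronger in 157 pairs, the second in 162, and 18 were equal.

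**Figure D5:**
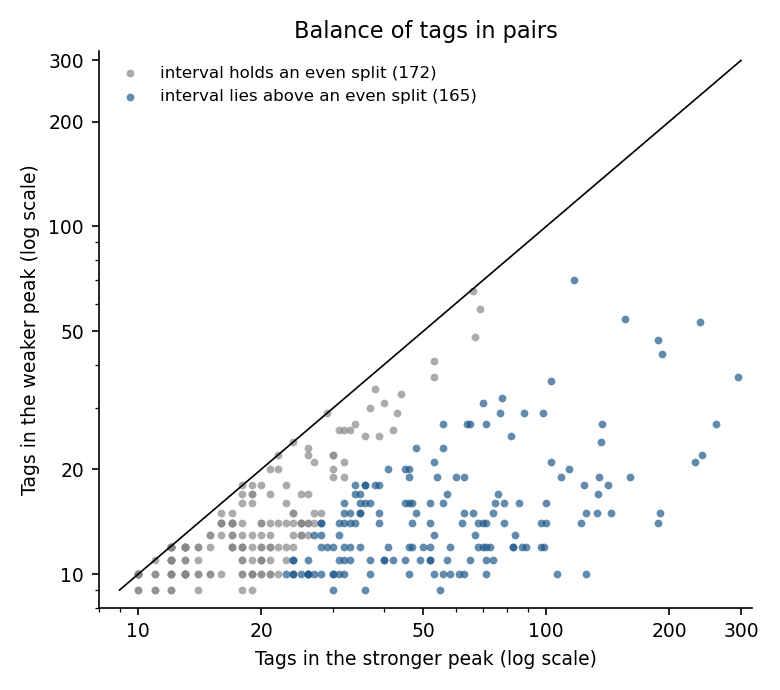
Tags in the stronger peak (x axis, log scale) against tags in the weaker peak (y axis, log scale) for the 337 pairs; the line marks equal tags. Blue points (165) are pairs whose exact 95% interval for the stronger peak's share lies above 50%, and grey points (172) the rest. Few points with over 100 tags on the x axis lie above 50 tags on the y axis.

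The weaker peak of a pair was also set out by the tags of the stronger, which cap it, so part of any rise is fixed by the ordering. Where the stronger peak held 9 to 14 tags, the weaker had a median of 10 (51 pairs), and where it held 15 to 24 tags a median of 12.5 (86 pairs). It had 14 where the stronger held 25 to 49 tags (104 pairs), again 14 at 50 to 99 tags (66 pairs) and 19, from 10 to 70, at 100 tags or more (30 pairs). Over these classes the weaker peak reached an FDR of at most 5% in 1.96%, 17.4%, 36.5%, 31.8% and 70.0% of pairs. Summits moved apart in the last class, to a median of 2050 bp from 1416 bp at 50 to 99 tags, while the edges stayed a median of 382 and 354 bp apart. Among the 319 pairs of unequal tags, the stronger peak was also the wider in 278 and had the higher fold in 235. Median widths were 973 bp for the stronger and 677 bp for the weaker peak.

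The calls of a pair were therefore mixed. In 87 pairs (25.8%) both peaks had an FDR of at most 5%, in 183 (54.3%) 1 of them did, and in 67 (19.9%) neither. Filtered peaks were paired with peaks outside the filtered list in 91 pairs. The partner passed the FDR limit in 37 of these and failed it in 54. These partners held a median of 15 tags, from 9 to 48. Restricting the list changes the picture, since 198 of the 4207 peaks at an FDR of at most 5% had a neighbour of that kind within 2000 bp (4.71%) and 10 of the 887 filtered peaks did (1.13%), against 7.64% in the complete list. A peak counts there only if its neighbour passes the same limits.

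Balance and calls were also set out by the distance between edges. The median share of the stronger peak was 68.1% in the 117 pairs at most 250 bp apart and 61.7% in the 38 pairs from 1500 to 2000 bp. The closer pairs also held more tags, a median of 48 in all against 34. That share was 52.4% where the stronger peak held 9 to 14 tags and 88.2% where it held 100 or more. These classes are set by the tags that also enter the share, and no member held fewer than 9. Much of that rise is therefore fixed in advance. The part of depth in the difference by distance was not tested. Both peaks passed the FDR limit in 27.4% (20.1 to 36.1) and 26.3% (15 to 42) of these pairs, intervals that overlap. Summits lay slightly more often on the side of the partner than on the outer side. In 371 of the 674 paired peaks (55.0%, 51.3 to 58.8) the summit lay past the middle of the peak on the side of its partner, and in 300 on the outer side. For peaks without a neighbour, 48.8% lay past the middle as read along the chromosome.

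Some groups passed the tag minimum of the filtered list only in sum. In all, 164 groups held at least 50 tags together, and 58 of them had no member of 50 tags. These 58 groups held 50 to 77 tags and none has a peak in the filtered list, although in 27 every member passed the FDR limit. The highest total, 77 tags, lay on chromosome 1 from 24552909 to 24555478, in peaks of 44 and 33 tags with an FDR of at most 0.09%. It was picked for that total after the values were seen. Single peaks as wide as the median group, 72 of the 8930 without a neighbour, held a median of 120.5 tags and 42.9 tags per kb. Width rose with tags, so this choice takes strong peaks, and 70 of the 72 were in the filtered list. The 180 groups at or above the median span held a median of 67 tags and 20.8 tags per kb of span. That span takes in the uncovered stretches, so these densities are unlike measures and no difference is read from them. Over all groups the medians were 46 tags, 20.4 tags per kb of span and 26.0 per kb covered by peaks.

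Groups of 3 or more peaks numbered 21 and spanned a median of 4598 bp (3088 to 6526). They held a median of 74 tags (43 to 175), and the strongest peak took a median of 56.5% of them. In 10 groups 1 peak was in the filtered list, and in no group were 2. The strongest of 3 peaks was the middle one in 10 of 19 groups, the first in 3 and the last in 6. The group with most tags, on chromosome 18 from 72872059 to 72876351, was of the middle kind, with 12, 145 and 18 tags. Its central peak had 20.1 times its expected tags and the flanks 6.86 and 6.39 times. Chromosome 20 from 2507701 to 2512624 held 10, 14 and 143 tags, and chromosome 22 from 19743903 to 19750428 held 116, 19 and 22. On chromosome 2 from 159946886 to 159950286 all 3 peaks passed the FDR limit with 29, 20 and 18 tags, as did the 3 on chromosome 22. These examples of 3 peaks were chosen after their values were seen.

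Both groups of 4 peaks were on chromosome 7, and none of their 8 peaks was in the filtered list. From 17181570 to 17185400 the tags were 18, 20, 11 and 12, at 4.92 to 6.30 times expected, and 2 of the peaks passed the FDR limit. The strongest peak held 32.8% of the group's tags, the lowest share of all groups. From 44998422 to 45003518 the tags were 10, 14, 13 and 29, and the last alone passed. That last peak also had the highest input background of the group, 2.52 times the genome mean, and 3.77 times its expected tags.

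High input background was uncommon in the whole list, close peaks or not. The input reached 5 times its genome mean or more at 0.41% of all peaks. By kind, these were 39 of the 8930 peaks without a neighbour (0.44%, 0.32 to 0.60) and 1 of the 739 members (0.14%, 0.02 to 0.76), intervals that overlap. That member, of 27 tags with 2.5 times the expected number and an FDR of 44.8%, was the last of 3 peaks on chromosome 6 from 327628 to 333189, whose tags were 30, 54 and 27. Median backgrounds were 1.26 times the genome mean in both kinds of peak. Among the members, 28.6% (25.4 to 31.9) sat at the genome mean itself, against 31.4% (30.5 to 32.4) of the others.

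Close peaks were spread over all chromosomes but Y, which had 7 peaks in all. Their share of a chromosome's peaks was highest on chromosome 17, at 42 of 352 (11.9%, 8.95 to 15.7), followed by chromosome 1 with 109 of 1044 (10.4%) and chromosome 20 with 27 of 261 (10.3%). It was lowest on X, at 4 of 108 (3.70%, 1.45 to 9.14), and on chromosome 6, at 21 of 540 (3.89%, 2.56 to 5.87). Chromosome 19, the densest in peaks at 6.07 per Mb up to its last peak, had a share of 8.47%. Chromosome 13 had the second lowest density of the 23 chromosomes with members, 1.5 per Mb, yet a share of 9.83% (6.23 to 15.2), with none of its 17 members in the filtered list. Over those 23 chromosomes, density and share had a Spearman rho of 0.416 and a Pearson r of 0.403, given as a description. All peaks share 1 library, and DNA copy number was not measured.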

How the data were processed

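The submitters' processing notes list MACS 1.4, Bowtie 0.12.7 and CASAVA 1.8.2. Per the file headers, MACS 1.4.1 called peaks on merged alignments at p below 1e-05, with tags of 51 bp, fragments taken as 200 bp and 1 tag kept per position. The build is not given in the sources used here, and chromosome lengths were typed from general knowledge. The authors deposited for each peak a raw tag count, a score (−log10 p multiplied by 10), a fold (ratio of summit height to background) and an FDR in percent. The second copy of the list held the same 9669 peaks, and the filtered list held the 887 peaks its limits give.

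Distance was the next peak's start minus the previous peak's end, and peaks at most 2000 bp apart were joined into groups. Expected tags were solved from the score as the Poisson mean over the peak, with tags scaled by the library ratio of 1.09. Multiplied by the fold, this gave a whole summit height within 0.06 tags for 98.7% of 9667 peaks. For 5 members the solution lay under 0.98 times the genome mean, so it had failed. They were kept in medians and counts, and their ratios are not printed. Grouping and solving were tested on simulated data. Shares of peaks carry 95% Wilson intervals, shares within a pair exact binomial ones, densities exact Poisson ones and medians order-statistic ones. These cover counting error only.

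Named groups were the 10 with most tags, those of 4 or more peaks, pairs with both peaks in the filtered list (up to 10), the 5 closest and 3 widest summit spacings, the 3 most and 3 least balanced pairs of at least 100 tags, and the 3 pairs on each side of the limit. The members, limits and comparisons were chosen with earlier results of these data known. Other distances, peak lists, FDR limits and measures of strength were tried. Python 3.11.15, pandas 2.3.3, numpy 2.4.6 and scipy 1.17.1 were used.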

Additional observations from a re-analysis of the deposited data

How the results depend on the processing

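Of 61 recomputed values, 33 stayed within 1.5 times the main count or within the 95% interval of the main value, and 28 did not. The counts follow the distance allowed. At most 500 bp between edges gave 406 peaks in 201 groups (198 pairs, 3 larger), and 10000 bp gave 1590 peaks in 744 groups (659 pairs, 85 larger). Groups of 3 or more numbered 9 at 1000 bp and 41 at 5000 bp. The median summit spacing was 1180 bp and 2035 bp at these limits, and 1184 bp with at most 2000 bp between summits.

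With peaks at an FDR of at most 5% alone, 198 peaks formed 98 groups (96 pairs, 2 larger), with a median spacing of 1497.5 bp and a stronger share of 69.2%. Median tags were then 29 (95% interval 26 to 33) with a neighbour and 27 (27 to 28) without, which overlap, whereas 18 (17 to 19) and 15 (14 to 15) did not. The filtered list alone gave 10 peaks. The stronger peak's share was 64.4% at 5000 bp, 79.3% in pairs of at least 50 tags, 58.9% by tags over expected and 62.0% by fold. The share of members under the FDR limit was 38.4% at 1% and 72.0% at 20%, where 30.2% and 62.9% of all peaks passed.

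The summit windows by tag class, the settings between summits other than the number of members, and those without failed recoveries were chosen after seeing the data. No paired analysis was possible because neither library had a replicate. Pairs with at most 30 tags are too shallow to show uneven partners.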

Other observations

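With 10000 bp allowed between edges, 4 groups reached 5 peaks. On chromosome 20 from 2496386 to 2516621 the 5 peaks held 233 tags, 143 of them in 1 peak, and 2 were in the filtered list. On chromosome 17 from 38709980 to 38721143 the 5 peaks held 85 tags, 10 to 26 each, and 4 of them had an FDR of at most 5% although none reached 50 tags. All 5 of these peaks also had a neighbour within 2000 bp. Chromosome 11 from 65254538 to 65275516 held 89 tags in 5 peaks of 12 to 33 tags, of which 1 passed the FDR limit. Chromosome 7 from 17181570 to 17194377 held 78 tags in 5 peaks of 11 to 20 tags, of which 3 passed it.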
